A study of Mus musculus with 24 samples.

Results

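Glycolysis splits glucose into pyruvate, and the pentose phosphate pathway branches from it. The module described here holds 33 mouse genes of these pathways together with the hypoxia-inducible factor (HIF) axis and a set of genes that HIF is known to induce. The members were taken by gene name from the gene-level RNA sequencing table of the series, which lists 55487 genes. They are 3 transporters of glucose or lactate, 15 enzymes from hexokinase to lactate dehydrogenase, 3 regulatory kinases, 3 genes of the HIF axis, 5 HIF targets and 4 enzymes of the pentose phosphate pathway. All 33 passed the filter on low counts and are among the 15401 genes tested.

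Mouse embryonic fibroblasts (MEFs) were either wild type (WT) or lacked *Tfeb* and *Tfe3* (*tfeb tfe3* DKO), which encode transcription factors of lysosomal and metabolic genes. Each genotype received DMSO, the vehicle, torin1, an inhibitor of the kinase MTOR, or MK-8722, an activator of AMP-activated protein kinase (AMPK). The 6 groups held 4 libraries of poly(A) RNA each, 24 in all. The labels give no dose and no treatment time. The sources name a single WT line and a single DKO line, so that genotype and line cannot be told apart. The libraries of a group carry different passage labels (7, 8, 9 and 11 in WT, and 8, 9, 10 and 11 in DKO), all carry the same batch label, and p-values measure only the spread between these libraries.

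In glycolysis, hexokinase and phosphofructokinase make the early committed steps, and the later enzymes recover energy and pass pyruvate to lactate dehydrogenase or, through pyruvate dehydrogenase, to the mitochondria. HIF1A is a transcription factor that prolyl hydroxylases of the EGLN family mark for degradation when oxygen is present, and its protein level is therefore set largely after transcription. Synthesis of HIF1A and transcription of many glycolytic genes are known to depend on MTOR complex 1. AMPK, which senses a low energy charge, restrains MTOR complex 1.

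The total count of a library was between 24668870 and 33332507. *Tfeb* read 22.9 ± 1.74 CPM (read counts scaled to a common library size; mean ± SD, n = 4) in WT and 2.25 ± 0.289 in DKO under DMSO, whereas *Tfe3* read 120.2 ± 1.17 and 124 ± 2.11. The RNA level therefore checks the genotype label for *Tfeb* and not for *Tfe3*. Of 10 fibroblast markers 9 passed the filter, and *Lum* stayed under 1 CPM in every library. Their summed level was 5739 to 9801 CPM over the 24 libraries. Single fibroblast markers moved with the groups. *Thy1* read 3.12 CPM in WT under DMSO and 0 in DKO, *Pdgfra* read 5.09 and 25.2 CPM there, and *Col1a1* went from 2382 CPM under DMSO to 1093 CPM under torin1 in WT and from 1929 to 903 CPM in DKO. The part of these shifts in the differences below was not tested. The summed level of 5 epithelial markers was 25.3 to 34.0 CPM over the WT libraries and 43.3 to 72.2 CPM over the DKO libraries, with *Epcam* and *Krt18* under 1 CPM throughout. The sum was carried by *Krt19* (27.5 CPM in WT and 56.1 CPM in DKO under DMSO) and *Krt8* (2.19 and 3.85 CPM), whereas *Cdh1* read 0.677 CPM in WT and 0.115 CPM in DKO. The sum moved with genotype, and its part in the genotype differences below was not tested. The 6 leukocyte markers summed to 1.87 to 2.50 CPM in WT under DMSO and to 10.7 to 14.6 CPM under MK-8722, but 5 of them, *Ptprc* included, stayed under 1 CPM in every library. That sum was carried by *Cd68*, at 1.90 CPM in WT under DMSO and 11.8 CPM under MK-8722. The 4 neural markers summed to 26.3 to 39.2 CPM in WT under DMSO and to 13.5 to 19.7 CPM under torin1, with *Sox10* and *Gfap* under 1 CPM. Here *Tubb3* carried the sum, at 32.7 CPM in WT under DMSO and 16.2 CPM under torin1. The part of these shifts in the drug differences was not tested. Endothelial and muscle markers summed to at most 0.555 and 0.0854 CPM. Bulk RNA cannot tell fewer cells of a type from less RNA per cell.

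Promoter windows of 5 members are shown because these members carry the torin1 results below and because HIF binds the short motifs ACGTG and GCGTG. Of each gene the window with the most matches was taken, and of that window the stretch with the most marked letters. Letters come from RefSeq (GRCm38.p6), are written 5′ to 3′ along the gene's strand, and mark in capitals each ACGTG or GCGTG, or its reverse complement CACGT or CACGC. The *Hk2* window is chr6:82774455-82774534 (minus strand) and that of *Ldha* is chr7:46845724-46845803 (plus strand), inside the longer GENCODE gene model of *Ldha* but in none of its exons. The others, on the plus strand, are chr19:41911757-41911836 for *Pgam1*, chrX:106186950-106187029 for *Pgk1* and chr2:71873144-71873223 for *Pdk1*, and these 3 and that of *Hk2* overlap no GENCODE exon or gene model.
Hk2: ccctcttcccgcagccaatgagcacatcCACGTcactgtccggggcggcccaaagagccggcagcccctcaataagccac
Ldha: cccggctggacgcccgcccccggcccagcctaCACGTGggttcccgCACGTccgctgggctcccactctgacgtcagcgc
Pgam1: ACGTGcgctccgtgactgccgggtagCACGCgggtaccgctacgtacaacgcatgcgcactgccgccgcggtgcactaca
Pgk1: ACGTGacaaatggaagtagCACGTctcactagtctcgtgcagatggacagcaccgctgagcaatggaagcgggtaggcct
Pdk1: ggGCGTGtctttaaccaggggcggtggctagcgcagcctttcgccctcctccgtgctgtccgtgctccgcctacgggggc
A gene counted when any of its windows held a motif in the 250 bases before the start, both strands searched. On this count 30 of 32 members with a RefSeq window held ACGTG or GCGTG (93.8%), against 47.1% of 17492 protein-coding genes. These members had 47 windows in all, and per window the shares were 80.9% and 44%. *Gpi1* and *Tpi1* held neither, and *Ndrg1* had no window. CACGTG, which contains ACGTG on both strands, was found in 5 members (15.6%, against 7.61% of coding genes). Its longer form TCACGTG, the core of the element that TFEB binds, was found in *Hif1a*, *Pfkfb3*, *Pfkm* and *Slc16a1* (12.5%, against 4.16%). Base composition was not matched between members and other genes, and a match of letters is no evidence of binding.

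Levels of different genes were compared as TPM, a scaled transcript abundance that corrects for transcript length. In WT cells under DMSO the order was led by *Gapdh* (3320 ± 58.9 TPM), *Pkm* (1831 ± 66.6), *Eno1* (1443 ± 51.4) and *Aldoa* (948 ± 56.0). *Aldoa* and *Ldha* (883 ± 52.1) overlapped between libraries, as did *Pgam1* (806 ± 33.9) and *Tpi1* (742 ± 39.9). At the low end stood *Slc16a3* and *Egln3* (both 2.22 TPM, overlapping), *Aldoc* (1.10 ± 0.481) and *Car9* (0.218 ± 0.0574), the last of which had 5 to 8 counts in a library. The 33 members made up 1.23% of all TPM. The 15 enzymes summed to 11279 ± 250 TPM in WT under DMSO, 8928 ± 324.5 under torin1 and 10457 ± 198 under MK-8722, and the 3 groups did not overlap. In DKO cells the sums were 10819 ± 856, 8791 ± 531 and 10031 ± 825 TPM, where MK-8722 overlapped DMSO and torin1. Among libraries of the same passage label, the MK-8722 sum lay between those of DMSO and torin1 in both genotypes.

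The genes lie across the genome, for example *Hk2* (ENSMUSG00000000628) at chr6:82725025-82774454 on the minus strand and *Slc2a1* (ENSMUSG00000028645) at chr4:119108711-119137983 on the plus strand (GRCm38).

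Torin1 lowered most of the module in both genotypes. A gene was called when its Benjamini-Hochberg adjusted p (FDR) over all genes tested was under 0.05 and its fold change was at least 1.2. In WT cells 21 members fell and 3 rose (*Car9*, *Pdk1* and *Ndrg1*), where 20.5% of all genes tested fell and 26.6% rose. The median log2 fold change of the members was -0.43, against 0.049 over all genes. In DKO cells 17 members fell and 3 rose (*Ndrg1*, *Pdk1* and *Vegfa*), beside 20.2% and 23% of all genes, with medians of -0.32 and 0.021. MK-8722 moved fewer members. In WT cells 6 rose and 3 fell (background 10.3% up and 5.87% down), and in DKO cells 4 rose and 1 fell (5.47% and 3.21%), with medians of -0.046 and -0.054 against -0.015 and 0 over all genes. The torin1 and MK-8722 comparisons of a genotype share their DMSO libraries.

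**Figure D1:**
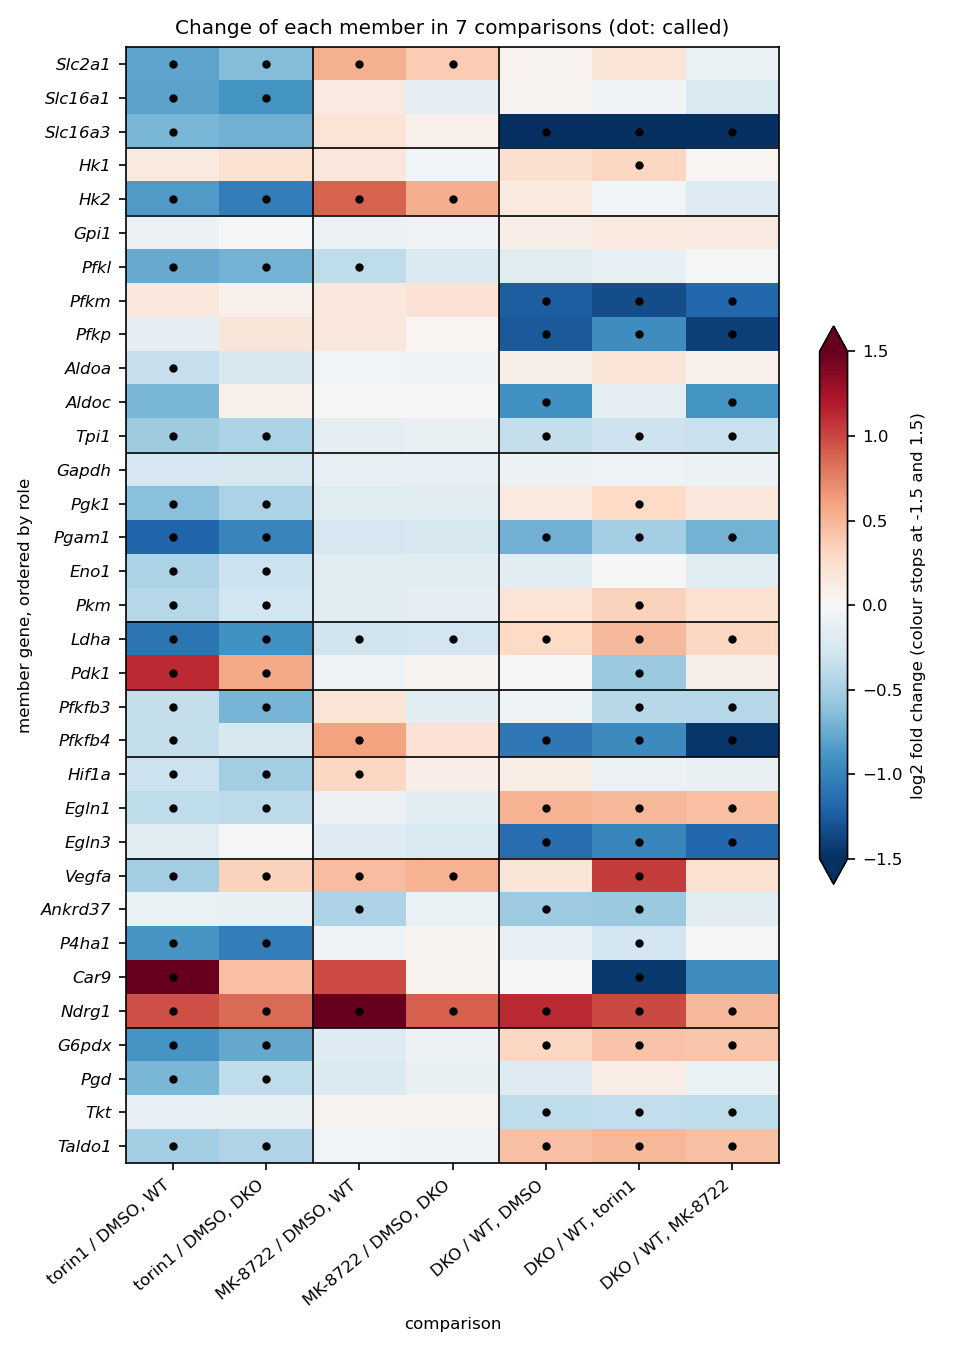
Log2 fold change of each of the 33 members (rows, grouped by role) in 4 drug and 3 genotype comparisons (columns), with a dot where the change was called; colour stops at -1.5 and 1.5, beyond which lie *Slc16a3* in the 3 genotype columns, *Car9* under torin1 in WT and *Ndrg1* under MK-8722 in WT. Blue fills the torin1 columns, where 21 and 17 members were called lower, and is sparse in the MK-8722 columns, where 3 and 1 were.

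RNA of *Slc2a1* and *Hk2* moved in opposite directions under the 2 drugs. *Slc2a1* encodes the glucose transporter GLUT1. It read 113, 103, 110.0 and 103 CPM in the 4 WT libraries under DMSO, 57.03, 55.7, 72.2 and 63.8 under torin1 and 155, 149, 157 and 158 under MK-8722. The 3 groups did not overlap, with torin1 lowest and MK-8722 highest. In DKO cells it read 117, 114, 111 and 104, 70.7, 72.4, 67.8 and 72.4 and 133, 157, 143 and 148 CPM, in the same order and again without overlap. The log2 fold change (± SE) under torin1 was -0.79 ± 0.064 (FDR = 4.27e-10) in WT and -0.66 ± 0.064 (FDR = 8.72e-09) in DKO, and under MK-8722 it was 0.53 ± 0.064 (FDR = 1.01e-06) and 0.38 ± 0.064 (FDR = 0.000226).

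*Hk2*, the inducible hexokinase, behaved likewise and over a wider range. Its 4 WT libraries read 51, 52.5, 53.1 and 53.7 CPM under DMSO, 28.9, 24.7, 33.6 and 29.4 under torin1 and 88.2, 109, 98.7 and 91.9 under MK-8722. DKO libraries read 50.3, 63.6, 60.8 and 57.9, 26.8, 27.7, 28.2 and 30.5 and 81.2, 81.9, 83.6 and 91.4 CPM, and in both genotypes the 3 groups stood apart. Torin1 changed it by -0.85 ± 0.080 (FDR = 4.76e-09) in WT and by -1.04 ± 0.081 (FDR = 2.41e-10) in DKO, and MK-8722 by 0.88 ± 0.079 (FDR = 1.18e-08) and 0.54 ± 0.079 (FDR = 5.67e-05). *Hk1*, the constitutive hexokinase, was not called under either drug in either genotype, with log2 fold changes from -0.038 to 0.22. As a share of the summed TPM of *Hk1* and *Hk2*, *Hk2* was 16.3 ± 1.45% in WT under DMSO, 8.67 ± 1.06% under torin1 and 23.5 ± 1.16% under MK-8722. In DKO cells the shares were 15.2 ± 1.91%, 6.98 ± 0.747% and 21.5 ± 1.61%, so that the order held in both genotypes without overlap.

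The lactate transporter *Slc16a1* (MCT1) fell under torin1, by 0.80 on the log2 scale in WT and by 0.90 in DKO, and was not called under MK-8722. *Slc16a3* (MCT4), with 2.55 ± 0.293 CPM in WT, fell under torin1 (-0.68 ± 0.16, FDR = 0.000758). In DKO cells it had 2 to 8 counts in a library, and its torin1 value of -0.72 ± 0.37 (FDR = 0.22) was not called.

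**Figure D2:**
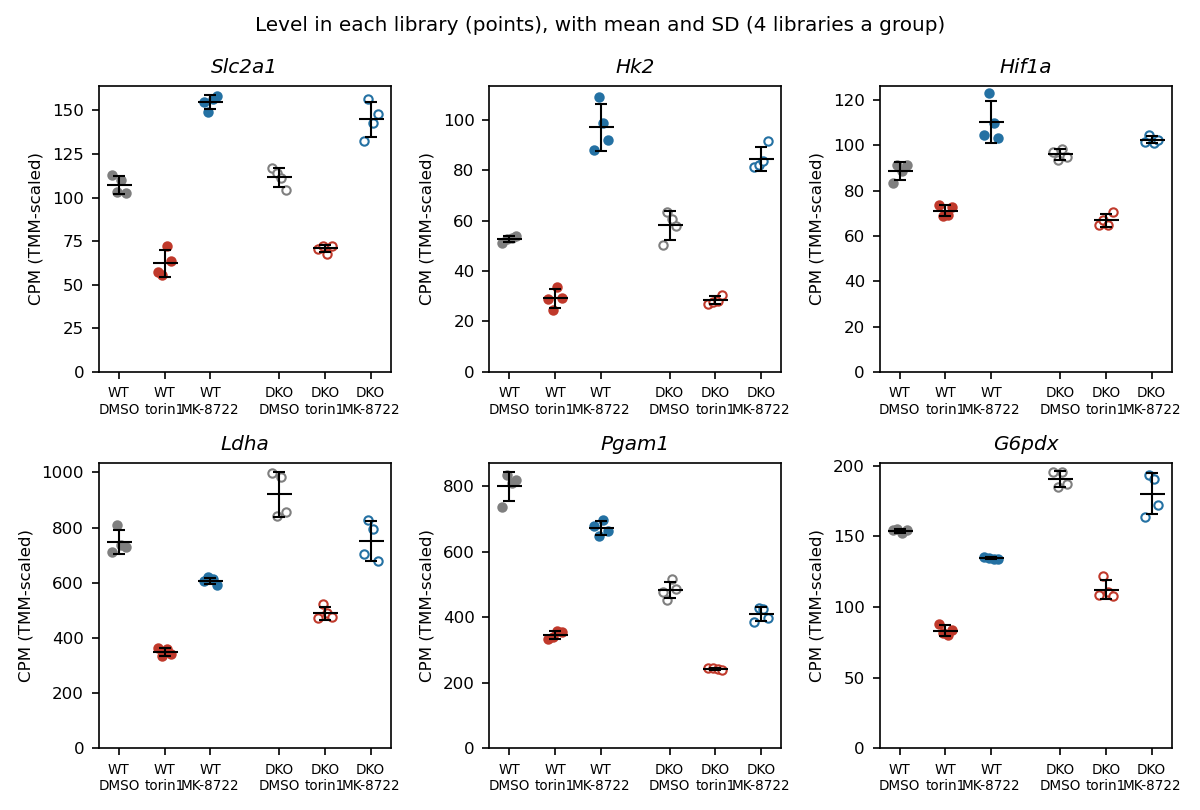
CPM (vertical axis, from 0) of 6 members in each of 24 libraries by genotype and treatment; points are libraries, filled for WT and open for DKO, and bars give the mean and SD (n = 4). *Slc2a1* and *Hk2* lie lowest under torin1 and highest under MK-8722 in both genotypes, whereas the means of *Ldha*, *Pgam1* and *G6pdx* are lowest under torin1 and highest under DMSO.

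Upper glycolysis was uneven. *Pfkl*, the liver-type subunit of phosphofructokinase, read 168, 204, 179 and 182 CPM in WT under DMSO, 112, 109.5, 99.9 and 112 under torin1 and 138, 149, 141 and 137 under MK-8722, and both drugs gave lower values in every library. It fell under torin1 in WT (-0.76 ± 0.082, FDR = 4.1e-08) and DKO (-0.71 ± 0.082, FDR = 1.36e-07) and under MK-8722 in WT (-0.38 ± 0.082, FDR = 0.00112). The value under MK-8722 in DKO, -0.22 ± 0.082 (FDR = 0.0625), was not called. The muscle- and platelet-type subunits *Pfkm* and *Pfkp* were not called under either drug. *Aldoa*, the main aldolase here, fell under torin1 in WT (-0.34 ± 0.066, FDR = 0.000106) and missed the fold minimum in DKO (-0.24 ± 0.066, FDR = 0.00374), and *Tpi1*, triosephosphate isomerase, fell in both (-0.53 ± 0.046, FDR = 1.21e-09 and -0.48 ± 0.046, FDR = 6.14e-09). *Gpi1*, glucose-6-phosphate isomerase, was called in none of the 11 comparisons, and its log2 values lay between -0.088 and 0.15.

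In lower glycolysis the lead was taken by *Pgam1*, phosphoglycerate mutase. WT libraries read 736, 833, 809 and 818 CPM under DMSO and 334, 338, 358 and 355 under torin1, and DKO libraries 477, 454, 515 and 486 and 245, 245, 243 and 239. Torin1 values were below DMSO values in every library of both genotypes, and MK-8722 values lay between (647 to 697 and 384 to 429.5 CPM). The torin1 change was -1.21 ± 0.044 (FDR = 1.31e-15) in WT and -0.99 ± 0.043 (FDR = 3.04e-14) in DKO. Under MK-8722 the values -0.25 ± 0.043 (FDR = 9.8e-05) and -0.24 ± 0.043 (FDR = 0.00042) passed the FDR but not the fold minimum.

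*Pgk1*, phosphoglycerate kinase, fell under torin1 by 0.63 in WT and by 0.48 in DKO on the log2 scale, *Eno1*, enolase, by 0.47 and 0.32, and *Pkm*, pyruvate kinase, by 0.43 and 0.29. The *Pkm* call in DKO was lost without DKO DMSO replicate 1 or without DKO torin1 replicate 4, with values from -0.34 to -0.25 over the left-out libraries. *Gapdh*, glyceraldehyde-3-phosphate dehydrogenase, was not called in any comparison. Its values under torin1, -0.25 ± 0.060 (FDR = 0.000834) in WT and -0.24 ± 0.060 (FDR = 0.00137) in DKO, passed the FDR and missed the fold minimum. Several of these genes share near-identical sequence with other genes (at least 95% over 300 bases), among which reads could be split. The count of 3 such genes came to 32.3% of the *Eno1* count, that of 77 to 36.2% of the *Gapdh* count, and that of 4 to 10.5% of the *Pgk1* count. Summing a member with its copies ended no call. It was done for every member with a copy except *Pfkp*, whose match is *Pitrm1*, a gene overlapping it on the other strand. *Gapdh* was then called under torin1 in WT (-0.28 ± 0.060, FDR = 0.000302), and *Pkm* was called between torin1 and MK-8722 in WT (-0.28 ± 0.054, FDR = 0.000116). *Eno1* was then called as lower in DKO than in WT under DMSO, at -0.35 ± 0.051 (FDR = 2.36e-06) with its copies and -0.16 ± 0.050 (FDR = 0.00707) without them. Under MK-8722 it read -0.33 ± 0.051 (FDR = 6.45e-06) with its copies and -0.15 ± 0.050 (FDR = 0.0111) without them.

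Splicing of *Pkm* was read from the transcript estimates. ENSMUST00000034834 holds, at rank 9 among its exons, the exon at chr9:59675568-59675734. ENSMUST00000163694 holds in its place the exon at chr9:59675029-59675195, which lies upstream (GRCm38, plus strand). Rank 9 counts exons within each transcript and does not name an isoform. ENSMUST00000034834 made up 61.5 ± 1.29% of *Pkm* TPM in WT under DMSO and 59.1 ± 2.39% to 63.1 ± 1.10% in the other groups. ENSMUST00000163694 made up 25.7 ± 0.601% and 25.1 ± 0.482% to 26.5 ± 0.452%. No test was run on these shares.

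At the exit of glycolysis, *Ldha* and *Pdk1* parted under torin1. *Ldha*, the lactate dehydrogenase subunit that favours lactate, read 713, 808, 738 and 731 CPM in WT under DMSO, 365, 334, 359.6 and 340.3 under torin1 and 605, 619, 612 and 592 under MK-8722. In DKO cells under DMSO, torin1 and MK-8722 it read 999, 844, 983 and 855, 472, 523, 489 and 475 and 704, 826, 795 and 679.5 CPM. Groups were ordered DMSO, MK-8722, torin1 without overlap in both genotypes. The torin1 change was -1.10 ± 0.062 (FDR = 1.15e-12) in WT and -0.91 ± 0.062 (FDR = 2.55e-11) in DKO. The smaller MK-8722 change, -0.30 ± 0.061 (FDR = 0.000594) and -0.29 ± 0.061 (FDR = 0.00164), was called but lost the fold minimum without WT DMSO replicate 2 (-0.26) and, in DKO, without any 1 of DMSO replicates 1 and 3 and MK-8722 replicates 1 and 4 (-0.34 to -0.25 over the left-out libraries).

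*Pdk1*, a kinase that inactivates pyruvate dehydrogenase, rose under torin1. WT libraries read 6.46, 8.82, 6.53 and 6.30 CPM under DMSO and 16, 17.7, 12.5 and 15.3 under torin1, and DKO libraries 7.78, 6.57, 7.29 and 6.38 and 10.8, 11.6, 11.2 and 8.22, so that the groups did not overlap in either genotype. The changes were 1.12 ± 0.13 (FDR = 1.57e-07) in WT and 0.57 ± 0.14 (FDR = 0.00101) in DKO. MK-8722 gave -0.047 ± 0.14 (FDR = 0.845) and 0.041 ± 0.14 (FDR = 0.879), which were not called.

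The PFKFB enzymes set the level of fructose 2,6-bisphosphate, the activator of phosphofructokinase. *Pfkfb3* fell under torin1 in WT (-0.36 ± 0.095, FDR = 0.00262) and DKO (-0.70 ± 0.098, FDR = 1.9e-06) and was not called under MK-8722. *Pfkfb4* read 24.99, 26.7, 26.9 and 26 CPM in WT under DMSO, 20.3, 19.7, 20.7 and 20.95 under torin1 and 42.9, 40.2, 42.6 and 33.1 under MK-8722. It therefore had the order of *Slc2a1* and *Hk2*, with -0.36 ± 0.10 (FDR = 0.00394) for torin1 and 0.60 ± 0.10 (FDR = 6.58e-05) for MK-8722. In DKO cells neither was called (-0.24 ± 0.11, FDR = 0.0696 and 0.22 ± 0.11, FDR = 0.164).

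*Hif1a* RNA followed the same order in both genotypes, without overlap between the groups of a genotype. It read 83.1, 91.2, 88.7 and 91.4 CPM under DMSO, 73.8, 68.7, 69.3 and 72.6 under torin1 and 104, 123, 110.0 and 103 under MK-8722 in WT, and in DKO 97.2, 93.4, 98.4 and 94.6, 64.7, 67.1, 64.9 and 70.6 and 101.7, 105, 101.0 and 102.4. It fell under torin1 in both (-0.32 ± 0.047, FDR = 3.52e-06 and -0.52 ± 0.047, FDR = 2.4e-09). Under MK-8722 it rose in WT (0.32 ± 0.047, FDR = 1.63e-05), a call that fell under the fold minimum without WT MK-8722 replicate 2 (0.25), and was not called in DKO (0.095 ± 0.047, FDR = 0.164). *Egln1*, the main oxygen-sensing prolyl hydroxylase, fell under torin1 by 0.38 in WT and by 0.40 in DKO on the log2 scale. *Egln3*, a hydroxylase that HIF itself induces, was called under neither drug.

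The HIF targets did not share a direction. *P4ha1*, a collagen prolyl hydroxylase subunit, read 96.2, 142, 104 and 118 CPM in WT under DMSO and 72.5, 63.3, 54.4 and 59.8 under torin1, without overlap, and fell by 0.88 on the log2 scale in WT and by 1.04 in DKO. *Ndrg1*, a stress-responsive gene, rose under both drugs in both genotypes. WT libraries read 51.8, 54.9, 46.5 and 49.6 CPM under DMSO, 103, 85.2, 109 and 101.5 under torin1 and 131, 160.4, 141 and 151 under MK-8722, and DKO libraries 110.0, 135, 99.7 and 95.1, 186, 193, 189 and 222 and 172, 204, 186 and 255. DMSO libraries lay below every treated library of their genotype. The changes were 0.97 ± 0.11 (FDR = 1.28e-07) and 0.84 ± 0.11 (FDR = 9.18e-07) under torin1 and 1.52 ± 0.11 (FDR = 6.86e-10) and 0.89 ± 0.11 (FDR = 1.14e-05) under MK-8722.

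*Vegfa*, the endothelial growth factor, moved in opposite directions under torin1 in the 2 genotypes. WT libraries read 73.1, 71.3, 69.7 and 69.6 CPM under DMSO, 44.5, 47.6, 56.9 and 48.3 under torin1 and 96.8, 106, 96.5 and 93.6 under MK-8722, without overlap. DKO libraries read 78.7, 94.2, 77.4 and 70.6, 88.1, 90.6, 103 and 126 and 93.4, 115, 119 and 132, where both treated groups overlapped DMSO. Among DKO libraries of the same passage label, the torin1 and MK-8722 values were each above the DMSO value. Torin1 gave -0.52 ± 0.11 (FDR = 0.000206) in WT and 0.34 ± 0.11 (FDR = 0.00853) in DKO, and the latter was lost without DKO torin1 replicate 4 (0.23). MK-8722 gave 0.47 ± 0.11 (FDR = 0.0017) and 0.52 ± 0.11 (FDR = 0.0014).

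*Car9*, carbonic anhydrase 9, was close to the detection limit. It read 0.246, 0.181, 0.187 and 0.238 CPM in WT under DMSO (5 to 8 counts) and 0.522, 0.953, 0.878 and 0.860 under torin1 (16 to 30 counts). It rose in WT (1.89 ± 0.39, FDR = 0.000188) and was not called in DKO (0.45 ± 0.47, FDR = 0.429). Of the 6 groups only WT torin1, where *Car9* is highest, had at least 10 counts in every library. *Ankrd37* was called in 1 drug comparison, MK-8722 in WT (-0.47 ± 0.17, FDR = 0.0405), in which the groups overlapped and which was lost without any 1 of 5 of the 24 libraries (WT DMSO replicates 2 and 4 and WT MK-8722 replicates 1, 2 and 4, with -0.61 to -0.37 over the left-out libraries).

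The oxidative branch of the pentose phosphate pathway, which makes NADPH, fell under torin1. *G6pdx*, its first enzyme, read 154, 155, 152 and 155 CPM in WT under DMSO, 88.3, 81.9, 79.8 and 83.4 under torin1 and 136, 134, 134 and 134 under MK-8722, and 196, 185, 195 and 187, 108, 122, 111 and 108 and 164, 194, 191 and 172 in DKO. Torin1 libraries were the lowest of each genotype. The torin1 change was -0.89 ± 0.048 (FDR = 5.27e-13) in WT and -0.77 ± 0.048 (FDR = 6.02e-12) in DKO. *Pgd*, the next dehydrogenase of the branch, fell by 0.69 and 0.38 on the log2 scale. In the non-oxidative branch *Taldo1*, transaldolase, fell by 0.50 and 0.45, whereas *Tkt*, transketolase, passed the FDR but not the fold minimum (-0.12 ± 0.036, FDR = 0.00523 and -0.11 ± 0.036, FDR = 0.0122). None of the 4 was called under MK-8722 in either genotype. The log2 values there ran from -0.21 to 0.053.

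A direct comparison of torin1 with MK-8722 takes the difference of their group means, which leaves out DMSO. The DMSO libraries still enter the filter, the scaling and the shared estimate of spread behind SE and FDR. In WT cells 22 members were lower and 2 higher under torin1 than under MK-8722 (background 20% and 24.9%), with a median of -0.45 against 0.045 over all genes. In DKO cells 14 were lower and 2 higher (19.3% and 21.1%), with medians of -0.24 and 0.0047. *Hk2* differed most in both genotypes (-1.73 ± 0.081, FDR = 1.07e-13 in WT and -1.58 ± 0.081, FDR = 4.57e-13 in DKO). *Slc2a1* was also lower (-1.32 ± 0.065, FDR = 2.32e-13 and -1.03 ± 0.064, FDR = 8.62e-12), whereas *Pdk1* was higher under torin1 (1.17 ± 0.13, FDR = 1.17e-07 and 0.53 ± 0.14, FDR = 0.00197). *P4ha1* differed by -0.83 ± 0.11 (FDR = 1.31e-06) and -1.08 ± 0.11 (FDR = 3.02e-08), and *Pgam1* by -0.96 ± 0.043 (FDR = 6.83e-14) and -0.75 ± 0.043 (FDR = 2.47e-12). The other higher members were *Car9* in WT (0.92 ± 0.35, FDR = 0.0281, lost without any 1 of 5 treated WT libraries, torin1 replicates 2, 3 and 4 and MK-8722 replicates 2 and 4, with 0.65 to 1.08 over the left-out libraries) and *Hk1* in DKO (0.26 ± 0.052, FDR = 0.000172, lost without any 1 of 6 libraries, WT torin1 replicate 2, DKO DMSO replicates 2, 3 and 4, DKO torin1 replicate 1 and DKO MK-8722 replicate 4, with 0.24 to 0.29 over the left-out libraries).

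Whether the drug response differed between the DKO and WT lines was tested as an interaction, the change in DKO minus that in WT. The fit without a passage block called 3 members for torin1, all upward (background 4.68% up and 6.33% down). For MK-8722 it called 1, downward (1.42% and 4.08%). *Vegfa* had the largest called difference, 0.87 ± 0.15 (FDR = 0.000345), with a fall in WT and a rise in DKO. *Pgd* fell less in DKO (0.31 ± 0.065, FDR = 0.00217). The difference of *Pfkp*, 0.33 ± 0.10 (FDR = 0.0335), rested on values that were not called in either genotype (-0.15 ± 0.071, FDR = 0.0809 in WT and 0.18 ± 0.074, FDR = 0.042 in DKO). It was lost without any 1 of 7 libraries (WT DMSO replicates 1 and 2, WT torin1 replicates 2 and 4, DKO DMSO replicate 3 and DKO torin1 replicates 3 and 4) with 0.28 to 0.44 over the left-out libraries. *Pfkp* also overlaps *Pitrm1* on the other strand, and how strand was used in counting is not given in the sources used here.

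The call for MK-8722 was *Ndrg1* (-0.63 ± 0.16, FDR = 0.0151), which rose less in DKO from a higher level under DMSO. *Slc2a1* and *Hk2* were not called (-0.15 ± 0.090, FDR = 0.424 with a 95% interval of -0.34 to 0.033, and -0.34 ± 0.11, FDR = 0.0696 with -0.57 to -0.11). For *Pdk1* under torin1 the interaction was -0.55 ± 0.19 (FDR = 0.0538) with an interval of -0.95 to -0.16. *Hif1a* passed the FDR in both interactions (-0.20 ± 0.066, FDR = 0.0398 and -0.22 ± 0.066, FDR = 0.0443) and missed the fold minimum. With passage within genotype as a block, more members had a lower response in DKO, 3 for torin1 and 5 for MK-8722. For torin1 these were *Pdk1* (-0.55, FDR = 0.00412), *Pfkfb3* (-0.34, FDR = 0.027) and *Car9* (-1.37, FDR = 0.0419). For MK-8722 *Hk2* (-0.34, FDR = 0.0126), *Pfkfb4* (-0.38, FDR = 0.00988), *Pfkfb3* (-0.36, FDR = 0.0249) and *Slc16a1* (-0.27, FDR = 0.000166) joined *Ndrg1*. The share of all genes called with this block was not computed, so that these counts cannot be read as particular to the module.

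**Figure D3:**
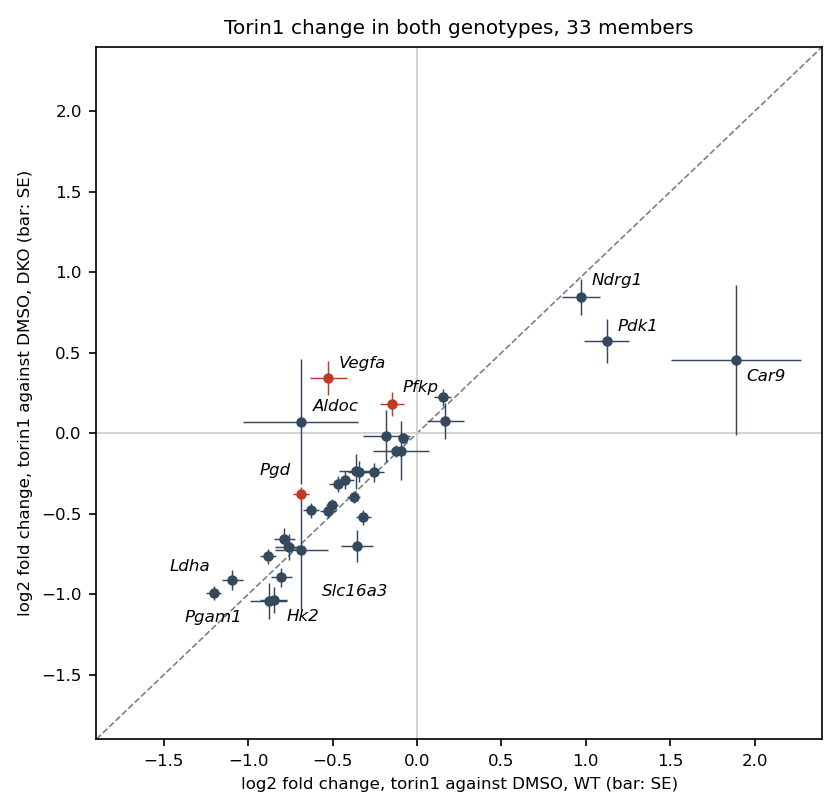
Log2 fold change of each of the 33 members under torin1 against DMSO in WT (horizontal axis) and in DKO (vertical axis), with bars for the SE and a dashed line of equality; the members called in the interaction (*Vegfa*, *Pgd* and *Pfkp*) are red. Most members lie in the lower left near the line, and *Vegfa* lies to its upper left at -0.52 and 0.34.

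The 2 lines differed in the level of 2 phosphofructokinase subunits, *Pfkm* and *Pfkp*. Under DMSO 10 members were lower and 5 higher in DKO than in WT (background 24.6% and 23.5%), under torin1 13 and 9 (27.8% and 24%) and under MK-8722 10 and 5 (25.4% and 23.3%). The median log2 difference of the members was -0.0095, -0.077 and -0.10 under the 3 treatments, against -0.0078, -0.036 and -0.013 over all genes. *Pfkm* read 90.2, 90.5, 108 and 94.2 CPM in WT and 42.7, 35.98, 41.5 and 42.4 in DKO under DMSO (-1.24 ± 0.11, FDR = 1.72e-09). *Pfkp* read 69.02, 75.4, 60.8 and 65.8 and 28.4, 29.2, 26.7 and 29.3 CPM (-1.25 ± 0.073, FDR = 1.05e-12). Neither *Pfkm* nor *Pfkp* overlapped between genotypes under any treatment. *Pfkp* shares 748 bases at 100% identity with *Pitrm1*, whose count came to 340% of the *Pfkp* count. How strand was used in counting is not given, and the part of this in the *Pfkp* level and the shares below was not tested. *Pfkl* was not called, and its share of the summed TPM of the 3 subunits was 48.8 ± 1.02% in WT and 66.8 ± 3.72% in DKO under DMSO. Under torin1 the share was 36.5 ± 1.27% in WT and 53.7 ± 1.64% in DKO, without overlap with DMSO.

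**Figure D4:**
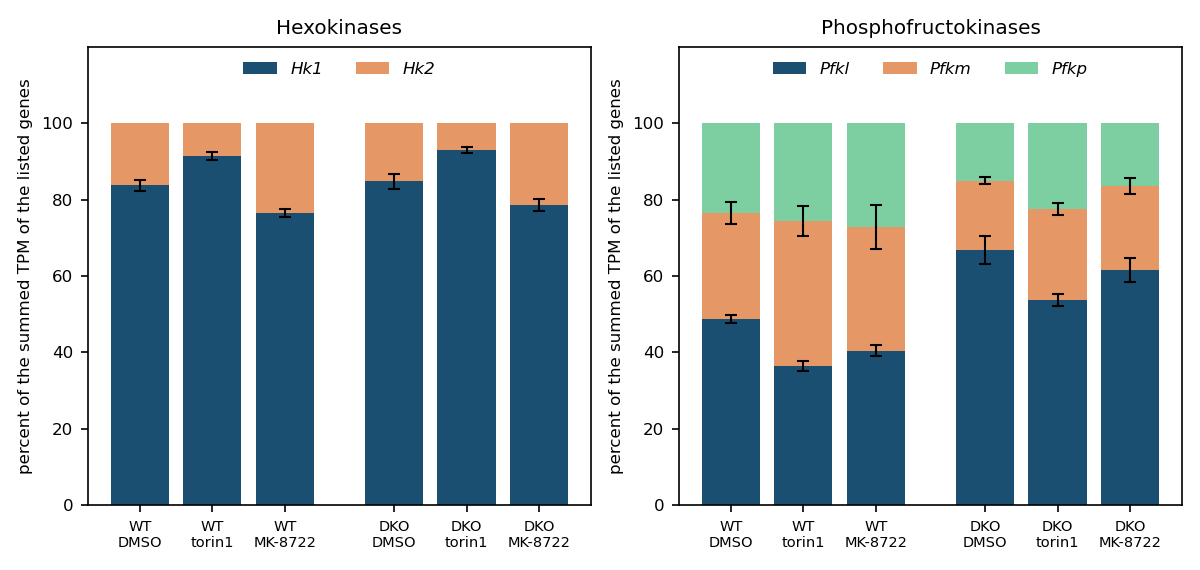
Percent of the summed TPM of the hexokinase genes (left) and of the phosphofructokinase genes (right) contributed by each gene in the 6 groups; bars are stacked means, and an error bar at the top of a segment is the SD (n = 4) of that segment's share (none is drawn for the topmost). The *Hk2* share is 8.67% under torin1 and 23.5% under MK-8722 in WT, and the *Pfkl* share is larger in DKO than in WT under each treatment.

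The regulators differed as well. *Pfkfb4* was lower in DKO under each treatment (-1.08 ± 0.11, FDR = 6.23e-09 under DMSO, -0.96 ± 0.11, FDR = 4.37e-08 under torin1 and -1.46 ± 0.10, FDR = 2.9e-11 under MK-8722). *Pfkfb3* was lower under torin1 (-0.41 ± 0.098, FDR = 0.000839) and MK-8722 (-0.42 ± 0.095, FDR = 0.00049). Both prolyl hydroxylases differed, in opposite directions. *Egln1* read 78.7, 80.7, 77.8 and 83.4 CPM in WT and 115, 116, 118 and 111 in DKO under DMSO (0.52 ± 0.039, FDR = 8.06e-11), whereas *Egln3* read 3.38, 3.67, 3.99 and 3.95 and 1.51, 1.79, 1.80 and 1.68 (-1.14 ± 0.15, FDR = 5.94e-07). The groups did not overlap for either.

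Of the lower enzymes *Pgam1* was lower in DKO under each treatment (-0.73 ± 0.043, FDR = 1.42e-12 under DMSO) and *Ldha* higher (0.30 ± 0.061, FDR = 0.000185). The latter call was lost without DKO DMSO replicate 1 or 3, with 0.26 to 0.34 over the left-out libraries, and the call under MK-8722 was lost without DKO MK-8722 replicate 2 (0.25). *Tpi1* was lower under each treatment (-0.36 ± 0.046, FDR = 3.54e-07 under DMSO). *Slc16a3* was close to the detection limit in DKO (3 to 6 counts in a library under DMSO), with 2.12, 2.62, 2.65 and 2.79 CPM in WT and 0.137, 0.128, 0.230 and 0.241 in DKO under DMSO (-3.76 ± 0.22, FDR = 1.49e-12). It passed the filter through the WT libraries, where it is high (69 to 87 counts under DMSO). *Aldoc*, the brain aldolase, read 0.192 to 1.40 CPM over all libraries under DMSO and was lower in DKO under DMSO (-0.90 ± 0.36, FDR = 0.0313) and MK-8722 (-0.90 ± 0.36, FDR = 0.0317). Its calls were lost without any 1 of WT DMSO replicate 4 and DKO DMSO replicates 1, 3 and 4 (-1.33 to -0.63 over the left-out libraries), and of WT MK-8722 replicates 1 and 3 and DKO MK-8722 replicates 1, 2 and 4 (-1.08 to -0.73). *Ndrg1* was higher in DKO (1.12 ± 0.11, FDR = 1.32e-08 under DMSO). Under torin1 *Vegfa* was higher (1.05 ± 0.11, FDR = 1.37e-08) and *Pdk1* lower (-0.56 ± 0.13, FDR = 0.00068) in DKO, and neither was called under DMSO. *Pkm* (0.35 ± 0.054, FDR = 5.77e-06), *Hk1* (0.32 ± 0.052, FDR = 1.43e-05) and *Pgk1* (0.30 ± 0.047, FDR = 7.9e-06) were higher and *Car9* (-1.45 ± 0.37, FDR = 0.00163) was lower in DKO under torin1. *Car9* was close to the detection limit there, with 6 to 11 counts in a DKO library and 16 to 30 in a WT library, the group where it is highest. *Ankrd37* was lower under DMSO (-0.54 ± 0.17, FDR = 0.00926) and torin1 (-0.55 ± 0.17, FDR = 0.00793). *P4ha1* was lower in DKO under torin1 (-0.28 ± 0.11, FDR = 0.0319), with groups that overlapped and a call lost without any 1 of 5 libraries (WT torin1 replicates 1 and 2 and DKO torin1 replicates 1, 3 and 4, with -0.33 to -0.19 over the left-out libraries).

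In the pentose phosphate pathway *G6pdx* (0.31 ± 0.047, FDR = 5.37e-06 under DMSO) and *Taldo1* (0.44 ± 0.036, FDR = 3.11e-10) were higher in DKO and *Tkt* was lower (-0.38 ± 0.036, FDR = 3.95e-09), each also under both drugs. Both lines share passages 8, 9 and 11. At each of these the ratio of DKO to WT had the sign of the fit for 14 of the 15 members called under DMSO, 22 of 22 under torin1 and 15 of 15 under MK-8722, the exception being *Aldoc*. The ratios use libraries that also gave the calls, so that agreement in sign is no independent check. The share over all called genes was not computed.

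**Figure D5:**
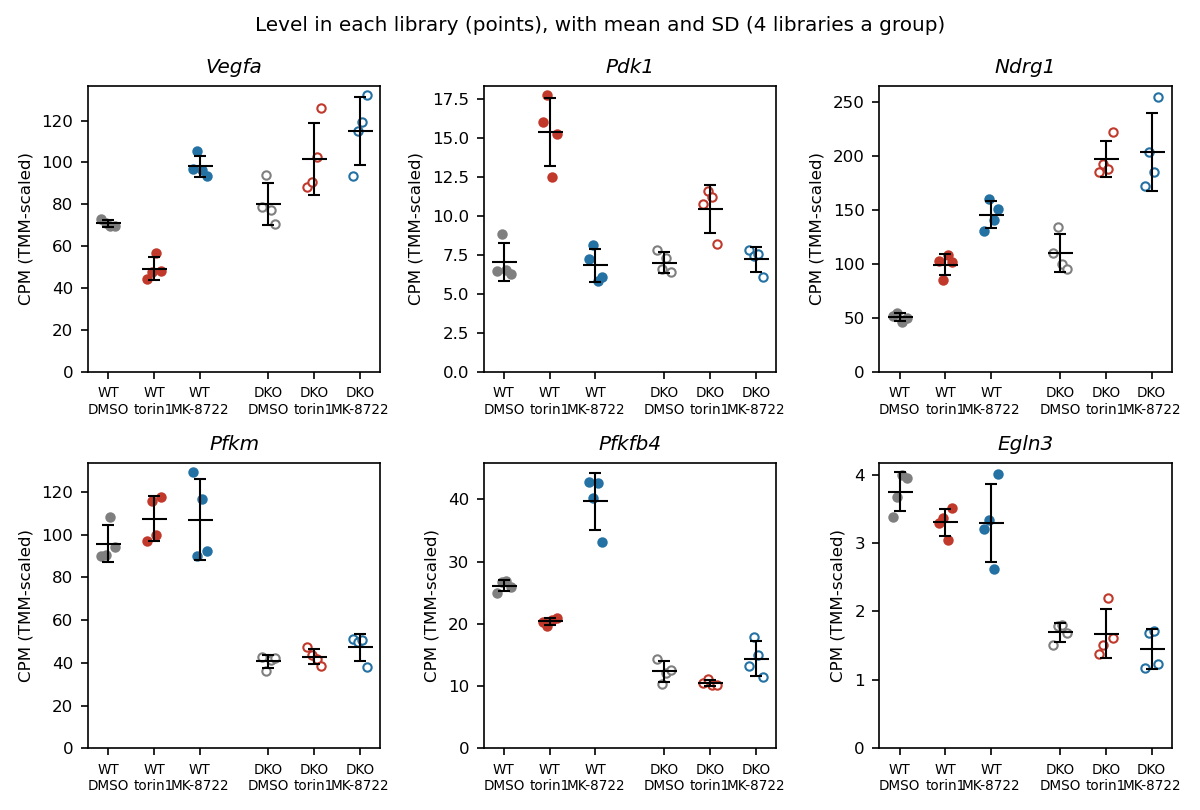
CPM (vertical axis, from 0) of 6 members in each of 24 libraries, drawn as for the drugs with filled points for WT, open points for DKO and bars for the mean and SD (n = 4). *Pfkm*, *Pfkfb4* and *Egln3* lie lower and *Ndrg1* higher in DKO than in WT under each treatment, and *Vegfa* under torin1 is 44.5 to 56.9 CPM in WT and 88.1 to 126 CPM in DKO.

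The level of the glycolytic enzymes also followed the passage label in DKO. The 15 enzymes summed under DMSO to 9906, 10333, 11248 and 11790 TPM at passages 8, 9, 10 and 11 in that order, under torin1 to 8160, 8672, 8889 and 9443, and under MK-8722 to 9085, 9641, 10472 and 10926. In WT the passage 11 library was the highest of each treatment (11644, 9322 and 10683 TPM). *Gpi1*, *Pfkl*, *Aldoa*, *Gapdh*, *Pgk1*, *Eno1*, *Pkm*, *Ldha*, *P4ha1* and *G6pdx* were higher in both later DKO passages than in both earlier ones under each treatment, which is 10 of the 33 members, beside 2.55% of the 15401 genes tested. In WT the same held for 2, *Aldoa* and *P4ha1*, beside 4.19%. The torin1 sum was below that of DMSO at each passage of both genotypes, and the MK-8722 sum lay between them.

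Other genes of these pathways, from lists set beside the members, did not all follow them. Of 42 further glycolysis genes 30 were tested, and torin1 raised 12 and lowered 9 in WT and raised 9 and lowered 9 in DKO. Over all genes torin1 raised 26.6% and lowered 20.5% in WT and raised 23% and lowered 20.2% in DKO, and MK-8722 raised 10.3% and lowered 5.87% in WT and raised 5.47% and lowered 3.21% in DKO, against which the counts of each list are to be read. Among the glycolysis genes *Pdpr*, a regulator of pyruvate dehydrogenase phosphatase, rose in WT (1.08 ± 0.052, FDR = 9.71e-14). *Tigar*, a fructose bisphosphatase, fell in DKO (-1.07 ± 0.053, FDR = 1.89e-13), and *Pdk4*, another pyruvate dehydrogenase kinase, rose there (1.58 ± 0.23, FDR = 2.63e-06). MK-8722 raised 5 and lowered 2 in WT and raised 3 in DKO. *Eno2*, the neuronal enolase, led both times (1.38 ± 0.10 in WT, FDR = 4.99e-10, and 0.58 ± 0.11 in DKO, FDR = 0.000569), and its interaction was called (-0.79 ± 0.15, FDR = 0.00105). *Ldhb*, the other lactate dehydrogenase subunit, was lower in DKO under DMSO (-3.41 ± 0.12, FDR = 2.45e-16).

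Of 11 further pentose phosphate genes 9 were tested. Torin1 raised 2 and lowered 3 in WT and raised 2 and lowered 2 in DKO, and the median log2 change under MK-8722 was 0.13 in WT and -0.046 in DKO. *Rpia*, ribose 5-phosphate isomerase, fell under torin1 in both genotypes (-0.51 ± 0.081, FDR = 8.49e-06, and -0.84 ± 0.081, FDR = 6.78e-09). Of 55 further genes of the HIF axis 50 were tested. Torin1 raised 8 and lowered 18 in WT and raised 14 and lowered 21 in DKO, and MK-8722 raised 7 and lowered 6 in WT and raised 5 and lowered 2 in DKO. *Ddit4*, an inhibitor of MTOR complex 1, changed most under torin1 (-2.91 ± 0.13 in WT, FDR = 3.02e-14, and -3.48 ± 0.15 in DKO, FDR = 1.57e-14). *Kdr*, a VEGF receptor, had 2 to 3 counts in a WT library under DMSO and 19 to 31 under MK-8722. *Bhlhe40*, a transcriptional repressor, rose under MK-8722 in both genotypes (1.58 ± 0.15 in WT, FDR = 3.35e-08, and 1.03 ± 0.15 in DKO, FDR = 4.86e-05). *Loxl2*, a lysyl oxidase, was lower in DKO under DMSO (-5.95 ± 0.20, FDR = 8.28e-17).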

How the data were processed

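RNA was measured by poly(A) RNA sequencing (paired-end) of 24 MEF libraries, 4 in each of 6 groups. Per the labels and the study's methods, reads were aligned with STAR to GRCm38 and quantified with Salmon, and the authors deposited estimated counts per gene, not normalised between libraries, beside TPM per transcript. How strand was used in counting is not given in the sources used here. Estimated counts were rounded to whole numbers. Groups, treatments, passages and replicate numbers came from the labels.

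Genes were kept by filterByExpr with a minimum count of 10, which left 15401 of 55487. Libraries were scaled by TMM, and edgeR 4.0.16 (R 4.3.3) fitted 1 mean per group to all 24 libraries with 18 residual degrees of freedom. The quasi-likelihood test gave 11 contrasts, Benjamini-Hochberg adjusted over all genes tested. A gene was called at an adjusted p under 0.05 with a fold change of at least 1.2. CPM were computed from the counts with the TMM factors (0.95 to 1.08), and TPM of a gene are sums over its transcripts. The biological coefficient of variation was 10.7%. Total counts of 24668870 to 33332507 per library limit the precision of members with few counts, such as *Car9*. The RNA integrity number of the labels, a score of RNA quality, was 7.9 in DKO MK-8722 replicate 3 and 9.7 to 9.9 elsewhere. Leaving out that library lost 0 of the 154 calls of a member in a contrast.

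Promoter letters and motifs came from RefSeq, and near-identical copies (at least 95% over 300 bases) from BLAST+ 2.17.0. The model was tested on simulated data. The members and all gene lists were chosen with earlier results of these data known. All 33 members are named, with values in every library for a part of those called. Their order within a role does not strictly follow the size of their change. Companion genes named were chosen after their values were seen from the 3 with the largest called change in each list and contrast. Alternatives were other scalings, filters, tests, call rules and blocks, and left-out libraries. Summing copies, leaving out 2 passage sets and the ratios at shared passages were added after seeing the data.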

Additional observations from a re-analysis of the deposited data

Results flagged for a closer look

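In 10 of 198 groups of 4 libraries (5.05%) the highest or lowest library stood apart by more than Dixon's 95% critical value, and chance alone marks about 1 in 20. In WT under DMSO, replicate 2 (passage 11) was highest for *Aldoa* (827.9 CPM, others 723.2 to 725.9), *Eno1* (1451 CPM, others 1331 to 1344) and *Pdk1* (8.823 CPM, others 6.303 to 6.532). In WT under torin1, replicate 1 (passage 11) was highest for *Hk1* (253.8 CPM, others 245.0 to 245.2) and lowest for *Egln1* (59.48 CPM, others 62.39 to 62.72), and replicate 3 (passage 7) was highest for *Eno1* (1023 CPM, others 970.4 to 976.2). *Pfkm* was lowest in both DKO passage 8 libraries concerned, at 35.98 CPM under DMSO (others 41.54 to 42.66) and 38.0 CPM under MK-8722 (others 49.86 to 51.39). In DKO under DMSO, replicate 1 was highest for *Ankrd37* (1.611 CPM, others 1.152 to 1.203) and replicate 3 for *Pgd* (185.1 CPM, others 173.7 to 174.8).

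By an interaction test the drug response differed between genotypes for 4 members without a passage block, and for more with it. On the log2 scale, DKO minus WT, the difference was 0.8686 for *Vegfa*, 0.308 for *Pgd* and 0.3257 for *Pfkp* under torin1. For *Ndrg1* under MK-8722 it was -0.6296. Among all genes tested, the unblocked fit marked 4.68% upward and 6.33% downward with torin1, beside 9.09% and 0% of members. With MK-8722 it marked 1.42% and 4.08% of all genes, beside 0% and 3.03% of members. No such background was computed for the blocked fit, so its larger count has nothing to be read against.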

How the results depend on the processing

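None of the 154 calls of a member in a contrast changed sign under an alternative. Of these, 38 were lost by a test against a fold change of 1.2, 16 with library size alone, 6 without the filter and 1 by the DESeq2 Wald test. Counts below are of members, and the share of all genes called under each alternative was not computed. With adjusted p alone, 5 rose under torin1 in DKO, 11 fell under MK-8722 in WT and 5 in DKO, 10 were higher in DKO under DMSO and 8 under MK-8722, and 1 and 2 had a lower response in DKO to torin1 and MK-8722. With the 1.2-fold test, 0 fell under MK-8722 in either genotype, 2 rose in DKO, 3 were higher in DKO under DMSO, 1 had a higher response to torin1, 0 a lower response to MK-8722, and 1 was higher under torin1 than MK-8722 in each genotype. With library size alone, which moved the median of all genes by -0.13 between genotypes under torin1, 3 were higher in DKO under DMSO, 1 had a higher and 2 a lower response to torin1, and 3 a lower response to MK-8722. Without the filter, 1 was higher under torin1 than MK-8722 in each genotype. By DESeq2, 1 and 2 had a lower response in DKO to torin1 and MK-8722. Without WT passage 11, 1 had a lower response to torin1 and 1 was higher under torin1 than MK-8722 in WT. Without DKO passage 8, 2 had a lower response to MK-8722 and 1 was higher under torin1 than MK-8722 in DKO. Without both, chosen after seeing the data, these were 1 for torin1 and 1 in DKO. The cause was not tested.

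Same-numbered libraries did not deviate together (r from -0.41 to 0.66), so the numbers do not pair them. Libraries of one passage correlated at 0.022 to 0.66 in WT and 0.049 to 0.24 in DKO, not all over 0.1. With a replicate block, 1 and 2 members had a lower response in DKO to torin1 and MK-8722, and 1 of 154 calls was lost. With a passage block these were 3 and 5, and 0 calls were lost in the contrasts it covers.

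Leaving out each library in turn gave, for higher and lower members, 3 to 3 and 21 to 22 under torin1 in WT, 2 to 3 and 16 to 20 in DKO, 6 to 6 and 1 to 4 under MK-8722 in WT, and 4 to 6 and 0 to 3 in DKO. DKO against WT gave 4 to 6 and 9 to 10 under DMSO, 9 to 10 and 12 to 13 under torin1, and 4 to 6 and 9 to 11 under MK-8722. The response gave 2 to 4 and 0 to 1 for torin1 and 0 to 0 and 1 to 4 for MK-8722. Torin1 against MK-8722 gave 1 to 3 and 22 to 24 in WT and 1 to 2 and 14 to 16 in DKO. Depth limits *Car9*, *Aldoc* and *Slc16a3* in DKO.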
